A study of Mus musculus with 18 samples.

Results

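The genes of the mitochondrial genome were followed through mouse heart development. They were taken as all genes whose symbol starts with mt-, with symbols assigned to the Ensembl identifiers through the GENCODE M21 annotation of GRCm38. The rule gives 37 genes, of which 13 encode proteins, 2 encode ribosomal RNAs and 22 encode transfer RNAs. Counts for 35 of them were used here, among 49315 identifiers in all: the 13 protein-coding genes and the 22 tRNA genes. The ribosomal RNA genes mt-Rnr1 and mt-Rnr2 were not analysed here. RNA was sequenced from dissected hearts of wild-type C57BL/6 embryos at 5 stages, where E is the day of gestation: 3 libraries each for E9.5 and E14.5, and 4 each for E10.5, E12.5 and E16.5. Each library is labelled as a pool of both sexes, no embryo carried an allele or received an agent according to the labels, and stage is the only factor. The labels give neither the number of hearts in a pool nor whether libraries of 1 stage are from different litters, and the p-values below measure the spread between these libraries only.

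Library totals ran from 30744015 to 45646538 counts. Levels of single genes are given as CPM, that is counts relative to the library total after scaling by edgeR's TMM factors. Sums over a list of genes are CPM of the library total without that scaling. The summed level of 15 cardiomyocyte markers was between 32013 and 54426 CPM in every library, while 4 lung markers summed to at most 5.7 CPM and 5 liver markers to at most 54.9 CPM. The cardiomyocyte sum was 38598 to 41634 CPM at E9.5 and 48052 to 54426 CPM at E16.5, and the sum of 7 fibroblast markers was 254.9 to 346.6 CPM at E9.5 and 4296 to 5674 CPM at E16.5. In bulk RNA, a changed share of a cell type and a changed amount of RNA per cell cannot be told apart. The libraries also fell apart by 8 macrophage-type transcripts (Atp6v0d2, Cd74, Chil3, Gpnmb, H2-Aa, Itgax, Mmp12 and Mmp13). Their sum was 0.582 to 2.75 CPM in 5 libraries, here called the low set (E9.5 replicates 2 and 3, E10.5 replicates 1 and 2, E12.5 replicate 4), and 340.8 to 688.5 CPM in the other 13, the high set.

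Mitochondrial DNA is a small circle whose strands are each transcribed into long precursor RNAs. tRNA genes lie between most of the other genes, and cutting the tRNAs out of the precursor releases the mRNAs and rRNAs. The mRNAs encode core subunits of respiratory complexes I, III and IV and of the ATP synthase (complex V), which are built together with many subunits encoded in the nucleus, and the rRNAs and tRNAs serve the ribosomes that translate these mRNAs inside the organelle. Heart muscle is among the tissues richest in mitochondria, and its reliance on oxidative metabolism grows as it matures.

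Position along the mitochondrial genome sorted the 13 protein-coding genes into those with abundant counts and those with very few. Per kilobase of gene, mt-Co1, the catalytic core of cytochrome c oxidase, had a median of 8847 CPM over the 18 libraries, followed by mt-Nd1 of complex I with 5764, mt-Cytb, the complex III subunit, with 5627, mt-Nd2 with 2472, mt-Nd5 with 1955, mt-Nd6 with 1673 and mt-Nd4 with 1390 CPM per kilobase. The ranges over libraries of mt-Nd1 (3451 to 11071) and mt-Cytb (3564 to 11420) overlapped almost wholly, as did those of mt-Nd5 (1032 to 4243) and mt-Nd6 (934.1 to 3426). The other 6 genes are neighbours on the genome and were lower in every library: mt-Nd3 had a median of 60.4, mt-Nd4l of 20.8, mt-Atp8 of 15.2, mt-Co3 of 14.4, mt-Co2 of 10.03 and mt-Atp6 of 8.69 CPM per kilobase. No library of these 6 genes exceeded 89.4 CPM per kilobase, and no library of the first 7 was below 846.4. In raw counts, the highest of the 6 was mt-Nd3 with 462 to 1063 counts per library, while mt-Co1 had 224536 to 855313.

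**Figure D1:**
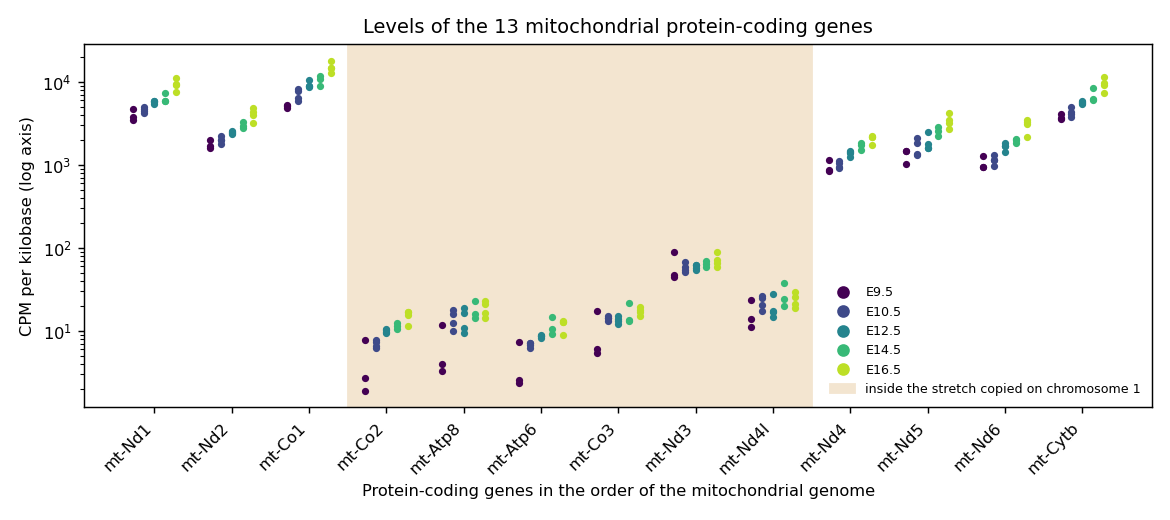
Level of each protein-coding gene of the mitochondrial genome in CPM per kilobase (log axis), in genome order, with 1 point per library coloured by stage. The 6 genes in the shaded block, which lie inside a stretch that is copied on chromosome 1, sit at or below 89.4 CPM per kilobase, and the 7 others at or above 846.4.

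These 6 genes lie inside a stretch of the mitochondrial genome whose annotated parts have near-identical copies in the nuclear genome, where insertions of mitochondrial DNA are common. Aligning the GENCODE M21 transcripts of the members to all nuclear transcripts found copies on several chromosomes. The most alike were 7 genes on the minus strand of chromosome 1, in the same order as on the mitochondrial genome. Their spacing was the same but for 1 base between mt-Nd3 and mt-Nd4l. The aligned parts lie within chr1:24611535-24616188 (GRCm38, 4654 bases) and chrM:6390-11042 (4653 bases), and the 7 alignments sum to 4140 bases. The bases between the annotated copies, which include those of mt-Atp8 and the tRNA genes, were not compared, and the copied stretch below means this whole span. Inside it lie 6 protein-coding members (mt-Co2, mt-Atp8, mt-Atp6, mt-Co3, mt-Nd3 and mt-Nd4l) and 5 tRNA genes (mt-Ts1, mt-Td, mt-Tk, mt-Tg and mt-Tr). The start of the stretch falls within mt-Co1 and its end within mt-Nd4. The copies were 100% identical to mt-Co2 over 681 aligned bases (Gm28661), to mt-Atp6 over 678 (Gm10925), to mt-Co3 over 783 (Gm28437), to mt-Nd4l over 294 (Gm10222) and to mt-Nd4 over 876 (Gm28439). Only 2 aligned positions differed among the 7 pairs, 1 in mt-Co1 and 1 in mt-Nd3. The windows around both are shown because they hold the only differences found in the aligned bases of these pairs. The differing base is in capitals. Positions are counted from 1 at the start of the member, whose base is given first, so that the pairs differ by A1066T (mt-Co1 and Gm29216) and T3C (mt-Nd3 and Gm28438).
mt-Co1, chrM:6390-6423, plus strand: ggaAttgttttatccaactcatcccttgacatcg
Gm29216, chr1:24616155-24616188, minus strand: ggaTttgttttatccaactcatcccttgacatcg
mt-Nd3, chrM:9459-9491, plus strand: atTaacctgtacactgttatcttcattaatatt
Gm28438, chr1:24613087-24613119, minus strand: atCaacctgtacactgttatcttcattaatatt

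The share of a member's 50-base windows that also occur in an annotated nuclear transcript was 100% for mt-Co2, 99.9% for mt-Co3, 99.5% for mt-Atp6, 98.8% for mt-Nd4l and 98.0% for mt-Nd3. It was 62.2% for mt-Nd4, 51.1% for mt-Co1, 8.19% for mt-Nd2, 7.61% for mt-Nd5 and 0% for mt-Nd1, mt-Nd6 and mt-Cytb. Windows of mt-Co1 also occurred in Gm13340 on chromosome 2 (97.6% identity over 1545 bases) and Gm11512 on chromosome 11 (90.7% over 654). Gm13341 and Gm13339 on chromosome 2 were 95.9% identical to mt-Co2 over 684 bases and 96.7% to mt-Nd2 over 510. Genes on chromosomes 4 and 13 matched mt-Cytb, mt-Nd5 and mt-Nd6 at 92.3 to 95.2% identity. mt-Atp8 has no annotated copy, and its share was 0%, but it lies between mt-Co2 and mt-Atp6 inside the collinear span. How reads that match more than 1 place were counted is not given in the sources used here, so the levels of the 6 genes in the stretch, and of mt-Co1 and mt-Nd4 in part, are uncertain, and reads of a member and its copy cannot be told apart where the bases are the same. The chromosome 1 copies of mt-Co2, mt-Atp6 and mt-Co3 had counts of the same order as these members. Counts of mt-Co2 per count of Gm28661 were 0.696 to 1.04 over the 18 libraries, of mt-Atp6 per Gm10925 0.55 to 0.733, and of mt-Co3 per Gm28437 1.07 to 3.22. mt-Nd4l and mt-Nd3 exceeded their copies, with 3.11 to 15.6 counts per count of Gm10222 and 6.94 to 33.0 per count of Gm28438. mt-Co1 had at least 1794 counts per count of Gm29216 and mt-Nd4 at least 234.8 per count of Gm28439.

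mt-Atp8 and mt-Atp6 encode membrane subunits of the ATP synthase and share bases on 1 mRNA. Their 43-base overlap is shown with the start codon of mt-Atp6 and the stop codon of mt-Atp8 in capitals. The sources used here do not say how a read across it was counted.
mt-Atp8 and mt-Atp6 overlap, chrM:7927-7969, plus strand: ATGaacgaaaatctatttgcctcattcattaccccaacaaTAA
The same holds over 7 bases for mt-Nd4l and mt-Nd4, and over 14 bases on opposite strands for mt-Nd5 and mt-Nd6, the only protein-coding gene of the minus strand.

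Mitochondrial transcripts took a growing share of the heart's RNA counts from stage to stage. The 13 protein-coding genes summed to 2.19% ± 0.165 of all counts at E9.5 (SD, n = 3), 2.76% ± 0.332 at E10.5 (n = 4), 3.49% ± 0.238 at E12.5 (n = 4), 4.32% ± 0.533 at E14.5 (n = 3) and 5.53% ± 0.739 at E16.5 (n = 4). Single libraries ran from 2.03 to 2.36% at E9.5, 2.39 to 3.16% at E10.5, 3.24 to 3.8% at E12.5, 3.82 to 4.88% at E14.5 and 4.62 to 6.41% at E16.5. Ranges of neighbouring stages did not overlap up to E14.5, and those of E14.5 and E16.5 did. The 6 genes of the copied stretch held 0.00272 to 0.00788% of all counts in any library, so the sum is that of the other 7. The 22 tRNA genes summed to 0.0105% ± 0.0024 at E9.5 (n = 3) and 0.0331% ± 0.00726 at E16.5 (n = 4). For each 1000 protein-coding counts there were 3.91 to 7.91 tRNA counts, with stage means between 4.54 and 6.02 whose ranges overlapped at neighbouring stages.

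**Figure D2:**
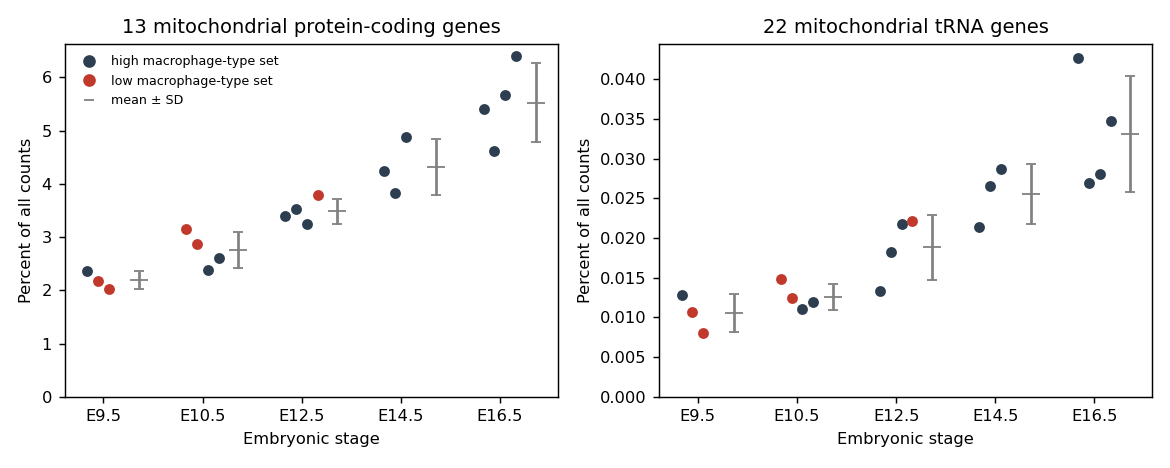
Percent of all counts in each library held by the 13 protein-coding genes (left) and the 22 tRNA genes (right) of the mitochondrial genome, by stage, with the mean ± SD beside the points and the set of libraries in colour. The protein-coding share runs from 2.03 to 2.36% at E9.5 to 4.62 to 6.41% at E16.5, and the tRNA share from at most 0.0128% to at least 0.0269%.

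Across the whole interval, E16.5 against E9.5, 24 of the 31 members that passed the filter on low counts rose and none fell (edgeR quasi-likelihood test, Benjamini-Hochberg adjusted p under 0.05 over 18885 genes). In that comparison 64.9% of all genes tested passed, 32.1% as higher and 32.8% as lower. Of the 31, 25 had an unadjusted p under 0.05. The 13 protein-coding genes contributed 11 and the 18 tRNA genes 13, and 23 members had every E16.5 library above every E9.5 library, against 31.5% of all genes. The median log2 fold change of the 13 protein-coding genes was 1.31, and that of all genes tested was -0.01. The 4 members below the filter were mt-Td and mt-Tk, listed at 0 counts in all 18 libraries, mt-Ts1 with 26 counts over all libraries and mt-Tt with 94. A count of 0 allows up to 3 counts, or 0.0657 to 0.0976 CPM per library without the TMM scaling. Of these 4, mt-Td, mt-Tk and mt-Ts1 lie in the copied stretch.

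Of complex I, the entry point for electrons from NADH, the 5 subunit genes that lie outside the copied stretch or only partly in it all rose. mt-Nd1 was at 4532, 3637 and 3302 CPM in the E9.5 libraries and at 8652, 7107, 9104 and 10595 CPM in the E16.5 libraries, and the groups did not overlap. Its level rose 2.32-fold (log2 fold change 1.21 ± 0.13 SE, edgeR adjusted p = 5.98e-08). mt-Nd2 rose to the same degree (log2 fold change 1.21 ± 0.12 SE), mt-Nd4 by a log2 fold change of 1.12 ± 0.11 SE, mt-Nd6 by 1.498 ± 0.149 SE and mt-Nd5 by 1.37 ± 0.21 SE. mt-Nd3 and mt-Nd4l, inside the copied stretch, did not pass: their log2 fold changes were 0.25 ± 0.19 SE (edgeR adjusted p = 0.278) and 0.54 ± 0.28 SE (adjusted p = 0.0938). mt-Nd3 was at 30.8, 16.4 and 15.3 CPM at E9.5 and at 31.1, 24.6, 22.7 and 20.5 CPM at E16.5, so that E9.5 replicate 1 stood as high as the highest late library. Without that library both genes passed, with log2 fold changes of 0.65 (edgeR adjusted p = 0.000518) and 0.925 (adjusted p = 0.0075).

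mt-Cytb, the only mitochondrially encoded subunit of complex III, was at 4632, 4240 and 4077 CPM at E9.5 and at 10423, 8290, 10955 and 13065 CPM at E16.5. Every late library was above every early one, and the level rose 2.47-fold (log2 fold change 1.31 ± 0.14 SE, edgeR adjusted p = 6.2e-08).

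Of complex IV, cytochrome c oxidase, mt-Co1 had the smallest adjusted p of the 31 members. It was at 8093, 7933 and 7453 CPM at E9.5, at 12542, 11866, 9021 and 9790 CPM at E10.5, at 13799, 13732, 13310 and 16371 CPM at E12.5, at 16554, 13605 and 18075 CPM at E14.5 and at 22642, 19672, 22714 and 27844 CPM at E16.5. Only the E12.5 and E14.5 ranges overlapped, and from E9.5 to E16.5 the level rose 2.97-fold (log2 fold change 1.57 ± 0.13 SE, edgeR adjusted p = 3.35e-09). mt-Co2 and mt-Co3, which form the rest of the enzyme's mitochondrially encoded core and lie in the copied stretch, rose by log2 fold changes of 1.88 ± 0.31 SE and 0.85 ± 0.30 SE (edgeR adjusted p = 4.55e-05 and 0.0204). mt-Co2 was at 5.28, 1.85 and 1.29 CPM at E9.5 and at 11.5, 7.88, 10.7 and 11.7 CPM at E16.5. mt-Co3 was at 13.4, 4.28 and 4.78 CPM at E9.5 and between 11.8 and 15.2 CPM at E16.5, with overlap through E9.5 replicate 1. The call of mt-Co3 was lost without E9.5 replicate 2 or 3 (adjusted p = 0.099 and 0.105), with the set as a term (adjusted p = 0.0673), with the 2 stages alone (adjusted p = 0.0993) and within the high set, where its log2 fold change was 0.014. mt-Co2 had 0.985 within the high set (edgeR adjusted p = 0.000807). Leaving out E9.5 replicate 1 gave 2.73 for mt-Co2 and 1.59 for mt-Co3 (1.585 before rounding).

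Of complex V, mt-Atp6 and mt-Atp8 rose by log2 fold changes of 1.55 ± 0.29 SE (1.545 before rounding) and 1.55 ± 0.38 SE (edgeR adjusted p = 0.000136 and 0.00155). mt-Atp6 was at 4.95, 1.62 and 1.73 CPM at E9.5 and at 8.71, 6.04, 8.91 and 8.79 CPM at E16.5, and mt-Atp8 at 2.38, 0.811 and 0.664 CPM at E9.5 and at 3.33, 2.94, 4.29 and 4.66 CPM at E16.5. Within the high set mt-Atp6 had a log2 fold change of 0.715 (edgeR adjusted p = 0.0253) and mt-Atp8 of 0.68, which did not pass (adjusted p = 0.117). Without E9.5 replicate 1 they had 2.28 and 2.37. The high-set values rest on that 1 library at E9.5. The chromosome 1 copies moved as follows in the same comparison. Gm28661 (copy of mt-Co2) had a log2 fold change of 1.62 ± 0.28 SE, Gm10925 (mt-Atp6) of 1.49 ± 0.31 SE, Gm28437 (mt-Co3) of 1.95 ± 0.36 SE, Gm10222 (mt-Nd4l) of 1.08 ± 0.34 SE, Gm29216 (mt-Co1) of 1.83 ± 0.57 SE and Gm28439 (mt-Nd4) of 1.46 ± 0.30 SE, and all 6 passed. Gm28438, the copy of mt-Nd3, had -0.40 ± 0.46 SE and did not pass. In E9.5 replicate 1, the only high-set library of its stage, Gm28661 had 213 counts against 69 and 56 in the other 2, and Gm28437 had 186 against 41 and 47, so copies and members were high in the same library.

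**Figure D3:**
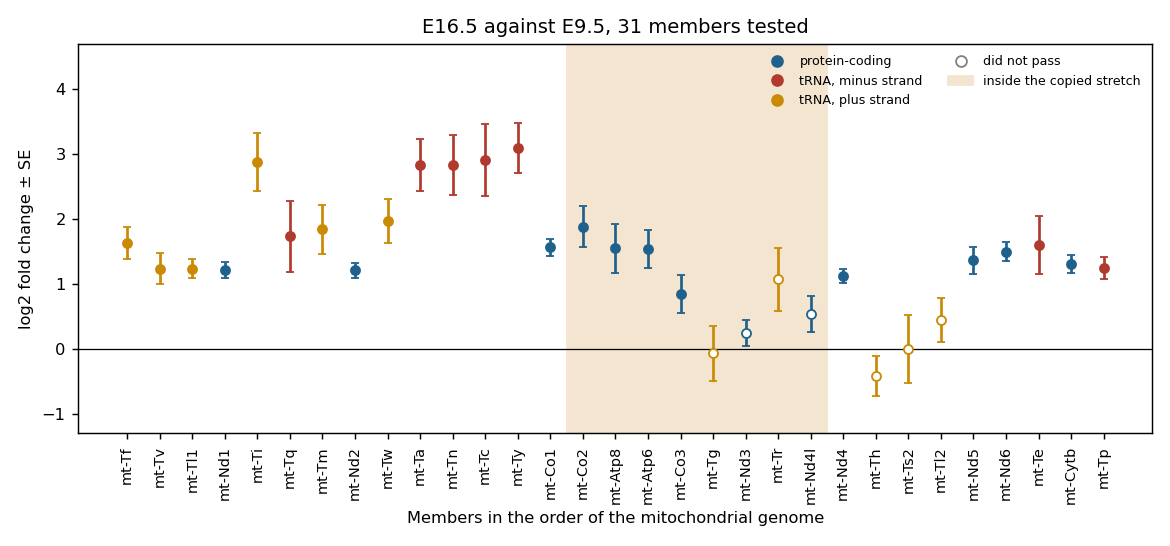
Log2 fold change ± SE of the 31 members tested for E16.5 against E9.5, in genome order, with protein-coding genes in blue, tRNA genes of the minus strand in red and of the plus strand in yellow. Open points did not pass, and the largest values belong to mt-Ty, mt-Tc, mt-Ti, mt-Ta and mt-Tn, at 2.83 to 3.09.

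Log2 fold changes of the tRNA genes were more widely spread, at -0.42 to 3.09, than those of the mRNAs, at 0.25 to 1.88. Some tRNA genes had few counts, such as mt-Tr with 4 to 28 and mt-Tw with 4 to 29 per library. SEs of the tRNA genes were 0.14 to 0.55, against 0.11 to 0.38 for the mRNAs. The part of count depth in this spread was not tested. All 7 tested tRNA genes of the minus strand rose from E9.5 to E16.5, with a median log2 fold change of 2.83, and 6 of 11 of the plus strand did, with a median of 1.24. The minus-strand median is the value of mt-Tn, which lies in a cluster described below. The other minus-strand genes, mt-Tq, mt-Te and mt-Tp, had log2 fold changes of 1.73, 1.60 and 1.245. These lay within the plus-strand range of -0.42 to 2.88. Of the plus-strand genes that did not pass, mt-Tg and mt-Tr lie in the copied stretch. In the alternative fits, 6 to 8 genes of each strand rose. The strand difference itself was not tested. At least a 4-fold rise with an edgeR adjusted p under 0.05 was seen in 8.57% of all genes tested. It was seen in 5 of the 31 members: mt-Ty, mt-Tc, mt-Ti, mt-Ta and mt-Tn. Of these, mt-Ta, mt-Tn, mt-Tc and mt-Ty form an unbroken cluster of minus-strand tRNA genes between mt-Nd2 and mt-Co1, which also holds the origin from which the light strand is replicated. Their sequences are shown with those of mt-Tp and mt-Tl1, which with mt-Tn are the 3 tRNA genes with the highest mean level, because the rows are short enough for each to be printed whole. The anticodon, the triplet that reads the codon, is in capitals.
mt-Ta (alanine), chrM:5018-5086, minus strand: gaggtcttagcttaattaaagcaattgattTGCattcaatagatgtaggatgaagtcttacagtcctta
mt-Tn (asparagine), chrM:5089-5159, minus strand: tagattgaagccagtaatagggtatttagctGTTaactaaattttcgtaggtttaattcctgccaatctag
mt-Tc (cysteine), chrM:5192-5257, minus strand: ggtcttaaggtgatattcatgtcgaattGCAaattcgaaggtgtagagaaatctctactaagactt
mt-Ty (tyrosine), chrM:5260-5326, minus strand: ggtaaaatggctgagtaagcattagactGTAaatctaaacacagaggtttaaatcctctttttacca
mt-Tp (proline), chrM:15356-15422, minus strand: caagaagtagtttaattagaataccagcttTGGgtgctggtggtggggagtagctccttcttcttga
mt-Tl1 (leucine), chrM:2676-2750, plus strand: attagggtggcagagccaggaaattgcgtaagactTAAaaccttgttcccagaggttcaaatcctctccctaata

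The level of mt-Tn was 15.9, 17.03 and 9.46 CPM at E9.5, 17.3, 14.6, 14.6 and 17.1 CPM at E10.5, 12.53, 38.2, 56.2 and 44.4 CPM at E12.5, 43.3, 65.0 and 72.4 CPM at E14.5 and 155.0, 63.6, 71.7 and 113.1 CPM at E16.5. The E9.5 and E10.5 libraries overlapped, E12.5 replicate 1 stayed within their range, and the E14.5 and E16.5 libraries were all above them. From E9.5 to E16.5 it rose 7.13-fold (log2 fold change 2.83 ± 0.47 SE, edgeR adjusted p = 9.65e-05). mt-Tn and its 3 cluster neighbours passed in all 18 alternative fits of this comparison. Its neighbours had lower levels but like folds. mt-Tc went from 2.79 ± 0.777 CPM (SD, n = 3) to 20.97 ± 9.74 (n = 4), mt-Ta from 1.77 ± 0.564 to 12.7 ± 4.83 and mt-Ty from 0.852 ± 0.134 to 7.30 ± 2.89. Their log2 fold changes were 2.91 ± 0.55, 2.84 ± 0.40 and 3.09 ± 0.39 SE, with edgeR adjusted p of 0.000301, 7.99e-06 and 1.36e-06. mt-Ti (isoleucine) is a plus-strand gene that overlaps the abundant mt-Nd1 by 2 bases on the same strand and mt-Tq by 3 on the opposite strand. mt-Ti was at 0.694, 0.487 and 0.266 CPM at E9.5 and at 5.6, 2.97, 2.44 and 3.35 CPM at E16.5 (log2 fold change 2.88 ± 0.45 SE).

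mt-Tp and mt-Tl1 rose by folds near the median of the 13 mRNAs. mt-Tp, which lies between mt-Tt and the control region, was at 37.5 ± 10.7 CPM (SD, n = 3) at E9.5 and 89.0 ± 10.51 (n = 4) at E16.5, a log2 fold change of 1.25 ± 0.17 SE (edgeR adjusted p = 6.71e-06; 1.245 before rounding). mt-Tl1, which sits between mt-Rnr2 and mt-Nd1, was at 27.1, 27.4 and 18.6 CPM at E9.5 and at 61.2, 55.6, 55.9 and 57.3 CPM at E16.5, a log2 fold change of 1.24 ± 0.14 SE (edgeR adjusted p = 2.97e-07). Per count of mt-Nd1, mt-Tl1 had 0.00516 to 0.00783 counts in every library. The other tRNA genes that rose were mt-Tw, mt-Tm, mt-Tq, mt-Tf, mt-Te and mt-Tv, with log2 fold changes of 1.97, 1.85, 1.73, 1.63, 1.60 and 1.24. mt-Tw had only 9, 5 and 4 counts in the E9.5 libraries and 28, 29, 20 and 20 in the E16.5 libraries. It overlaps the abundant mt-Nd2 by 2 bases on the same strand. mt-Tq had a log2 fold change of 0.85 within the high set and 2.55 without E9.5 replicate 1, and mt-Te had 2.22 with the set as a term. mt-Te, the glutamate tRNA beside mt-Nd6, was at 6.31, 10.4 and 8.23 CPM at E9.5 and at 25.9, 19.6, 21.8 and 33.3 CPM at E16.5. The 5 that did not pass were mt-Tr (log2 fold change 1.07 ± 0.49 SE), mt-Tl2 (0.45 ± 0.33), mt-Ts2 (0.00 ± 0.52, or 0.004 before rounding), mt-Tg (-0.07 ± 0.42) and mt-Th (-0.42 ± 0.31). In E9.5 replicate 1, mt-Tl2 was at 9.05 CPM, against 3.50 and 3.42 CPM in the others of its stage. mt-Tr was at 0.513 CPM there, against 0.13 and 0.199 CPM. Without that library 28 of 31 members rose. Of the 5, mt-Th, mt-Ts2 and mt-Tl2 adjoin each other between mt-Nd4 and mt-Nd5. mt-Th was at 3.26, 2.17 and 2.12 CPM at E9.5 and at 2.82, 1.9, 1.23 and 1.6 CPM at E16.5, while the mRNAs on either side of the trio rose.

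**Figure D4:**
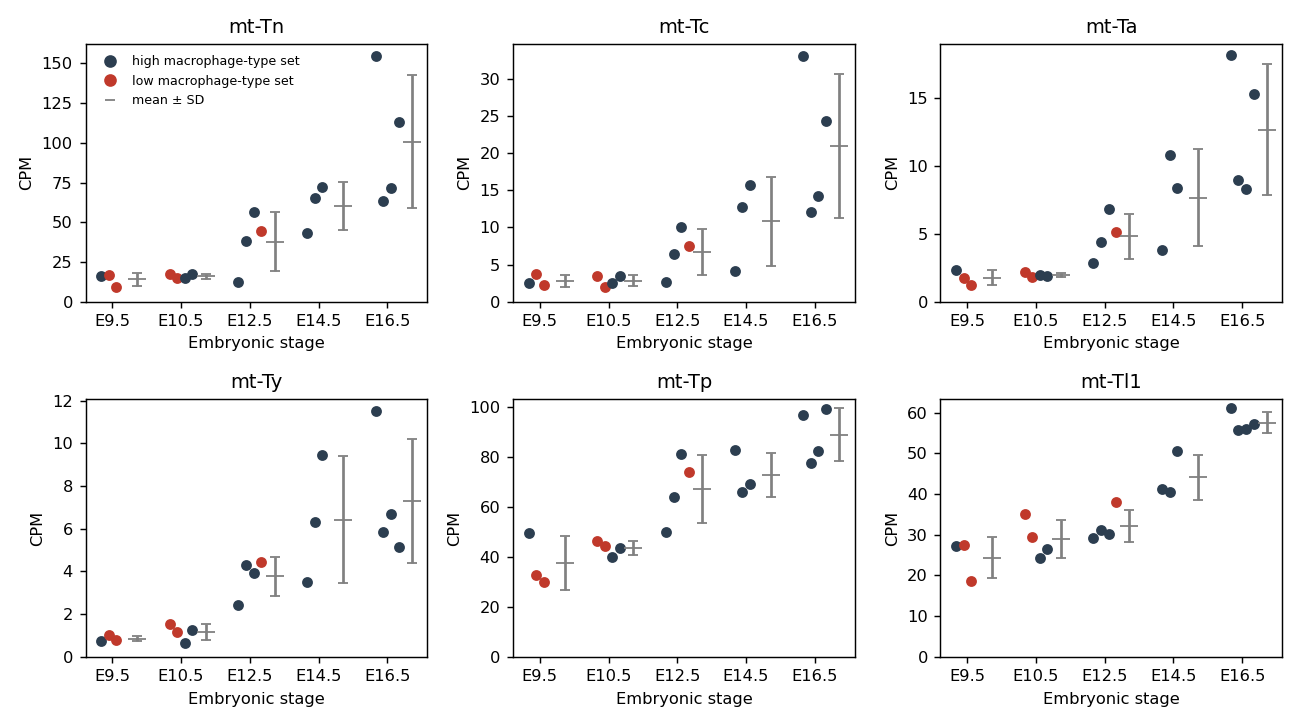
Levels in CPM of mt-Tn, mt-Tc, mt-Ta, mt-Ty, mt-Tp and mt-Tl1 in each library by stage, with the mean ± SD beside the points and the set of libraries in colour. The cluster of mt-Tn, mt-Tc, mt-Ta and mt-Ty is low at E9.5 and E10.5, spreads at E12.5, and reaches 155.0 CPM for mt-Tn in E16.5 replicate 1, while mt-Tl1 spans 55.6 to 61.2 CPM at E16.5.

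Mature tRNAs are shorter than the fragments of most mRNA libraries and carry no long poly(A) tail, and the labels do not say how RNA was selected for these libraries. As a measure of RNAs without a tail, 8 abundant nuclear ones (Rmrp, Rpph1, Rn7sk, Terc, Rny1, Rny3, Rn7s1 and Rn7s2) were summed. The sum was 2.36 to 3.55 CPM at E9.5, 2.04 to 3.46 at E10.5, 3.39 to 4.18 at E12.5, 2.9 to 7.26 at E14.5 and 4.1 to 12.2 at E16.5. Of the 8, 4 passed the filter, and 2 of these rose from E9.5 to E16.5. E14.5 replicate 1 had the lowest sum of its stage, 2.9 against 7.26 and 6.28 CPM. It was also the lowest of its stage for 13 of the 18 tRNA genes tested, among them mt-Ti (0.829 against 3.82 and 2.77 CPM) and mt-Te (5.78 against 15.3 and 20.7 CPM). It was the highest for 3, mt-Tf (6.28 against 5.52 and 4.76 CPM), mt-Tv (4.17 against 3.26 and 2.37 CPM) and mt-Tp (82.8 against 66.2 and 69.1 CPM). The library with the highest sum, E16.5 replicate 3 at 12.2 CPM, was not the one with the highest mt-Tn, E16.5 replicate 1, whose sum was 6.21 CPM. The part of RNA selection in the tRNA values was not tested.

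The comparisons of neighbouring stages differed in the number of members that passed, and in the share of all genes that passed. These comparisons share the libraries of the stage between them, so their values are given side by side and not related to each other. The median log2 fold change of the 13 protein-coding genes was 0.32 for E10.5 against E9.5 (0.316 before rounding), 0.31 for E12.5 against E10.5, 0.27 for E14.5 against E12.5 and 0.41 for E16.5 against E14.5, and the medians of all genes lay between -0.02 and 0.01.

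From E9.5 to E10.5, 2 of 31 members rose and none fell (edgeR), where 18.2% of all genes passed, 10.6% as higher and 7.62% as lower. They were mt-Co1 (log2 fold change 0.47 ± 0.13 SE, edgeR adjusted p = 0.0149) and mt-Atp8 (1.15 ± 0.38 SE, adjusted p = 0.0409), and 5 members had an unadjusted p under 0.05. The count was 9 without E9.5 replicate 1, 1 without E9.5 replicate 2, E10.5 replicate 2 or E10.5 replicate 4, and 0 without E9.5 replicate 3 or E10.5 replicate 1. The result also differed with the set of libraries. Within the low set, which has only 2 libraries at each of these stages, 17 of 31 members rose. Among them were all 13 protein-coding genes, with a median log2 fold change of 0.45 (0.446 before rounding). In that fit 19.4% of all genes passed as higher and 15.5% as lower, more than in the fit of all libraries. Within the high set, where 4.93% of all genes passed as higher and 1.18% as lower, no member rose and the median of the 13 was -0.11. There E9.5 is represented by replicate 1 alone, whose spread is assumed to be that of the other stages. mt-Nd3, which was at 30.8 CPM in that library against 16.4 and 15.3 in the others of its stage, had a log2 fold change of -0.68 (edgeR adjusted p = 0.0366). mt-Atp8 had 2.25 within the low set, -0.069 within the high set and 1.97 without E9.5 replicate 1. In a model with a mean for each stage and set, the change differed between the sets for mt-Co2 by 1.99 ± 0.31 SE (log2, edgeR adjusted p = 0.0111) and for mt-Co3 by 1.67 ± 0.30 SE (adjusted p = 0.0294). These are 2 of 31 members, where 0.169% of all genes passed. mt-Co2 was at 1.85 and 1.29 CPM at E9.5 and 5.01 and 5.31 CPM at E10.5 in the low set, and at 5.28 CPM at E9.5 and 4.48 and 4.25 CPM at E10.5 in the high set.

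From E10.5 to E12.5, 12 of 31 members rose and none fell (edgeR), where 38.0% of all genes passed, 20.0% as higher and 18.1% as lower. The 6 protein-coding genes were mt-Nd6 (log2 fold change 0.52 ± 0.13 SE), mt-Nd4 (0.45 ± 0.10), mt-Co1 (0.41 ± 0.12, or 0.405 before rounding), mt-Cytb (0.39 ± 0.12), mt-Nd1 (0.31 ± 0.11) and mt-Nd2 (0.29 ± 0.10). The 6 tRNA genes were mt-Ty (1.69 ± 0.33), mt-Ti (1.58 ± 0.39), mt-Ta (1.30 ± 0.34), mt-Tn (1.25 ± 0.40), mt-Tv (0.69 ± 0.22) and mt-Tp (0.63 ± 0.16, or 0.625 before rounding). mt-Ty was at 1.55, 1.18, 0.662 and 1.26 CPM at E10.5 and at 2.44, 4.3, 3.9 and 4.43 CPM at E12.5, with no overlap. None of the 6 protein-coding genes of the copied stretch passed. Leaving out any 1 library gave 9 to 13 members. The calls of mt-Nd1 and mt-Nd2 were each lost in 6 of these 8 fits, with adjusted p up to 0.0943 and 0.104. That of mt-Tn was lost without E10.5 replicate 2 or 3 or E12.5 replicate 3 (up to 0.0812). mt-Tn also did not pass with the replicate block or the 2 stages alone (edgeR adjusted p = 0.0521 and 0.0504). Within the high set mt-Ti, mt-Ta and mt-Tn did not pass (edgeR adjusted p = 0.0893, 0.147 and 0.224). The low set has 1 library at E12.5, so a comparison of the sets rests on it. Within the low set mt-Nd1, mt-Tv and mt-Tn had log2 fold changes of 0.194, 0.411 and 1.476. No member's change differed between the sets by the edgeR test at this step, where 0.0741% of all genes passed.

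From E12.5 to E14.5, 1 of 31 members passed, where 14.8% of all genes passed, 6.29% as higher and 8.56% as lower. It was mt-Tl1, at 29.2, 31.1, 30.2 and 38.0 CPM at E12.5 and 41.3, 40.5 and 50.6 CPM at E14.5 (log2 fold change 0.46 ± 0.14 SE, edgeR adjusted p = 0.0273). Of the 13 protein-coding genes none passed (edgeR), and 4 had an unadjusted p under 0.05. The count of members was 0 without E12.5 replicate 1, 2 or 3 or E14.5 replicate 3, 2 without E12.5 replicate 4, 2 (1 of them lower) without E14.5 replicate 2, and 4 without E14.5 replicate 1. mt-Nd5 passed without E12.5 replicate 4 (log2 fold change 0.614, edgeR adjusted p = 0.0457) and with the set as a term (0.606, adjusted p = 0.000588).

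From E14.5 to E16.5, 5 of 31 members rose and none fell (edgeR), where 18.9% of all genes passed, 10.1% as higher and 8.74% as lower. All 5 were protein-coding genes outside the copied stretch or partly in it: mt-Nd6 (log2 fold change 0.61 ± 0.15 SE), mt-Nd1 (0.54 ± 0.12), mt-Co1 (0.53 ± 0.13), mt-Nd2 (0.46 ± 0.11) and mt-Cytb (0.45 ± 0.13). mt-Nd6 was at 1067, 953.0 and 1029 CPM at E14.5 and at 1685, 1119, 1607 and 1778 CPM at E16.5. None of the 18 tRNA genes passed (edgeR), and 2 had an unadjusted p under 0.05. Without E14.5 replicate 2 the count was 3, and mt-Co1, mt-Nd2 and mt-Cytb had adjusted p of 0.0579, 0.0508 and 0.126. The call of mt-Cytb was also lost without E14.5 replicate 1 or E16.5 replicate 4. mt-Nd4 and mt-Nd5 passed with the set as a term (log2 fold changes 0.293 and 0.417, edgeR adjusted p = 0.0222 and 0.00817).

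Of the abundant mRNAs, only mt-Nd5 passed as different between the sets of libraries. By stage, the share of the 13 genes' counts held by mt-Co1 was 35.5% ± 0.885 at E9.5 (SD, n = 3) and 39.1 to 40.8% on average at the later stages. That of mt-Nd1 was 17.2% ± 1.82 at E9.5 and 15.4% ± 0.19 at E16.5 (n = 4). mt-Nd5 was at 1882, 2677 and 2651 CPM at E9.5, 3839, 3293, 2361 and 2476 at E10.5, 2884, 3285, 2927 and 4542 at E12.5, 4672, 4102 and 5145 at E14.5 and 5737, 4966, 6340 and 7739 CPM at E16.5. At each of the 3 stages that hold both sets, every low-set library was above every high-set library. With stage as a term, mt-Nd5 was higher in the low set by 0.55 ± 0.09 SE (log2, edgeR adjusted p = 0.000235), and mt-Te by 0.89 ± 0.28 SE (adjusted p = 0.0383). These were the 2 of 31 members to pass, where 21.8% of all genes passed and 10.1% were higher in the low set.

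Counts of mt-Nd5 per count of mt-Nd1 were 0.736 to 0.803 in the low set and 0.415 in the high set at E9.5, 0.764 to 0.807 and 0.546 to 0.588 at E10.5, and 0.877 and 0.509 to 0.601 at E12.5. At E14.5 and E16.5, where all libraries are of the high set, the ratio was 0.731 to 0.821 and 0.663 to 0.73. The ratio of mt-Co1 to mt-Nd1 showed the same order, with 2.18 to 2.26 against 1.79 at E9.5, 2.64 to 2.75 against 2.16 to 2.24 at E10.5 and 3.16 against 2.38 to 2.51 at E12.5. The low set was also above the high set of its stage, by smaller margins, for mt-Cytb per mt-Nd1 count (1.17 to 1.23 against 1.02 at E9.5, 1.16 to 1.18 against 1.02 to 1.08 at E10.5 and 1.26 against 1.08 to 1.24 at E12.5). For mt-Nd2 per mt-Nd1 count the values were 0.483 to 0.506 against 0.45 at E9.5, 0.484 to 0.49 against 0.46 to 0.464 at E10.5 and 0.503 against 0.433 to 0.484 at E12.5. All of these ratios have mt-Nd1 as the denominator, so their orders are not independent. With stage as a term, mt-Nd1 (-0.107, log2, low minus high set), mt-Nd2 (0.007) and mt-Cytb (0.064) did not pass. The order by set was absent at E9.5 for mt-Nd6 per mt-Nd1 count (0.135 to 0.147 against 0.147). It was present at E10.5 (0.138 to 0.143 against 0.125 to 0.132) and E12.5 (0.169 against 0.136 to 0.166). The ratio of mt-Nd4 to mt-Nd1 had no such order at E9.5 (0.321 to 0.36 against 0.347) and the opposite one at E10.5 (0.29 to 0.302 against 0.326 to 0.335) and E12.5 (0.331 against 0.346 to 0.353). The sum of 10 globin genes also separated the sets, with 4979 to 6529 CPM in the low set and 7914 in the high set at E9.5, 9101 to 9205 and 13501 to 15812 at E10.5, and 16172 and 31212 to 48727 at E12.5. The part of what separates the sets in the mt-Nd5 values was not tested. Since the low set ends at E12.5, the rise of mt-Nd5 was also fitted with the set as a term. It rose by a log2 fold change of 1.75 ± 0.16 SE from E9.5 to E16.5 in that fit, and by 1.72 within the high set, against 1.37 in the fit by stage alone. The 7 protein-coding genes outside the copied stretch or partly in it all passed as higher in every alternative fit of that comparison.

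**Figure D5:**
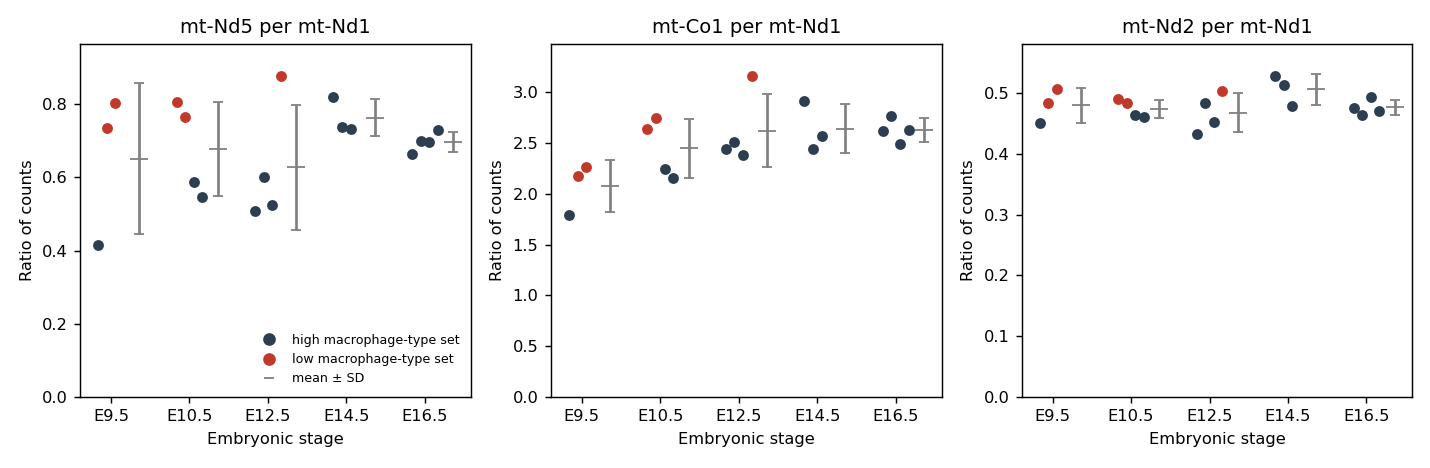
Counts of mt-Nd5 (left), mt-Co1 (middle) and mt-Nd2 (right) per count of mt-Nd1 in each library by stage, with the mean ± SD beside the points and the set of libraries in colour. The low-set libraries lie above the high-set libraries of the same stage for all 3 ratios, and the mt-Nd2 ratio spans 0.433 to 0.528 over all libraries.

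The nuclear genes whose products work with these members were read from lists of 212 genes, and their counts for E16.5 against E9.5 are set beside the background of 32.1% of genes passing as higher. Of nuclear subunits, 36 of 36 tested in complex I rose, 10 of 10 in complex III with cytochrome c, 14 of 15 in complex IV and 17 of 17 in complex V, as did all 4 subunits of complex II, which has no mitochondrially encoded subunit. None of the subunit genes fell. The list medians were 1.04 to 1.24 on the log2 scale, beside 1.31 for the 13 mitochondrial protein-coding genes. Ndufv1, the NADH-binding subunit of complex I, went from 177.1 ± 23.6 CPM (SD, n = 3) to 485.5 ± 51.7 (n = 4), and Cyc1, cytochrome c1 of complex III, from 319.8 ± 8.12 to 723.9 ± 70.8. Cox8b and Cox6a2, muscle forms of complex IV subunits, went from 0.47 ± 0.254 to 100.9 ± 23.2 CPM and from 67.8 ± 5.52 to 335.9 ± 49.1 CPM. Atp5b, the catalytic subunit of complex V, went from 2584 ± 172.0 to 4548 ± 259.8 CPM.

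The lists of nuclear factors that copy, transcribe and process mitochondrial DNA and RNA held more genes that fell than rose, where 32.1% of all genes passed as higher and 32.8% as lower. The share of the first list that fell is near that background. Of 17 tested genes of mitochondrial DNA maintenance and transcription, 2 rose, 6 fell and 9 did not pass. Tfam, which packages mitochondrial DNA and starts its transcription, fell from 67.1 ± 7.48 CPM at E9.5 to 47.9 ± 3.42 at E16.5 (log2 fold change -0.49 ± 0.08 SE, edgeR adjusted p = 4.31e-05), and Ssbp1, the single-stranded DNA binding protein of its replication, from 49.5 ± 4.11 to 35.2 ± 2.03 CPM. Of 20 genes of RNA processing and decay, 2 rose (Fastk and Hsd17b10) and 13 fell. Elac2, the nuclease that cuts the 3′ end of tRNAs out of the precursor, fell from 58.9 ± 6.12 to 32.7 ± 2.38 CPM (log2 fold change -0.85 ± 0.08 SE, edgeR adjusted p = 1.97e-08), and Hsd17b10, a subunit of the enzyme that cuts the 5′ end, rose from 75.1 ± 13.1 to 138.5 ± 13.9 CPM. Of the mitochondrial ribosome, 20 of 48 large-subunit genes rose and 5 fell, and 14 of 32 small-subunit genes rose and 4 fell, beside the same background. Among 12 regulators of mitochondrial biogenesis, 6 rose and 4 fell. Ppargc1a, the coactivator PGC-1α, went from 53.9 ± 3.29 to 127.3 ± 9.75 CPM, and its relative Pprc1 from 89.7 ± 19.5 to 40.1 ± 1.79 CPM.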

How the data were processed

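The values deposited by the authors are whole-number counts per Ensembl gene and library, not normalized. Per the submitters' processing notes, the tools were Subread 1.5.2, featureCounts, STAR 2.5.2b and Trimmomatic 0.36, with the builds GRCm38 and mm10. The sources used here do not give the strand setting, the annotation release or the treatment of reads that match several places. How reads of overlapping genes were counted, on the same or opposite strands, is therefore not known. Symbols and coordinates came from GENCODE M21 (48970 identifiers matched). Identifiers without a symbol held 0.0238 to 0.0388% of counts and stayed in the fit.

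Genes were filtered with filterByExpr by stage, which left 18885, scaled with TMM and tested with edgeR 4.0.16 in R 4.3.3 (quasi-likelihood, robust, stage as the only term, all 18 libraries, Benjamini-Hochberg adjusted p under 0.05). The SE of a log2 fold change was taken as its size divided by the square root of the F statistic. None of the 24 pairs of libraries within a stage was a duplicate: their chi-square per degree of freedom was 6.06 to 79.8. Members were aligned to nuclear transcripts with BLAST 2.17.0, keeping alignments of at least 100 bases and 90% identity. limma 3.58.1 (voom) and DESeq2 1.42.0 were alternatives, beside other scalings, filters and choices of libraries. The sets of libraries were split at a macrophage-type sum of 100 CPM. The members, gene lists and alternatives were chosen with earlier results of these data known. Named were the 13 protein-coding genes, tRNA genes that passed in at least 1 comparison, the 3 tRNA genes with the highest mean CPM, and from each nuclear list up to 3 genes with the smallest p for E16.5 against E9.5 and a mean of at least 10 CPM. The other members, the chromosome 1 copies and single libraries were named after their values were seen.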

Additional observations from a re-analysis of the deposited data

Results flagged for a closer look

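The 3 stages with 4 libraries were checked for the 31 members tested and for 9 sums or shares of gene classes, or 120 groups of 4 libraries, of which 4 had 1 library far from the other 3, where chance gives about 1 in 20. mt-Co1 was at 16371 CPM in E12.5 replicate 4, the low-set library of its stage, against 13310 to 13799 CPM in the others. mt-Nd4 was at 2377 CPM in E16.5 replicate 2 against 2955 to 3068 CPM, and mt-Atp6 in the same library at 6.04 against 8.71 to 8.91 CPM. mt-Tl2 was at 8.84 CPM in E10.5 replicate 1 against 5.78 to 6.16 CPM.

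The change from E9.5 to E10.5 differed between the low and the high set of libraries for mt-Co2 by 1.99 and for mt-Co3 by 1.67 on the log2 scale (edgeR adjusted p = 0.0111 and 0.0294). Both genes lie in the stretch copied on chromosome 1, and the high set has 1 library at E9.5, whose spread is assumed to be that of the others. The differences of mt-Atp8 (2.30), mt-Atp6 (1.61) and mt-Nd3 (1.103) had adjusted p of 0.0606, 0.0606 and 0.063.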

How the results depend on the processing

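The count of 24 members that rose from E9.5 to E16.5 and the count of 12 from E10.5 to E12.5 stayed within 1.5 times under every alternative run (23 to 28 and 9 to 13 when leaving out 1 library). The median of the 13 protein-coding genes for E16.5 against E9.5 was 0.972 with the high set only and 1.20 to 1.41 when leaving out 1 library (1.201 to 1.413). For E10.5 against E9.5, the count of 2 became 5 with the set as a term, 17 with the low set only, 1 (lower) with the high set only, 4 with limma-voom and 5 with DESeq2, and 0 to 9 when leaving out 1 library. There the median was -0.11 with the high set only and 0.173 to 0.414 when leaving out 1 library. mt-Nd3 had 0.444 (adjusted p = 0.00736) with the low set only, and mt-Atp8 -0.069 (adjusted p = 0.944) with the high set only. For E14.5 against E12.5, the count of 1 became 3 with library totals only, 3 with the set as a term, 3 with the high set only, 3 with the 2 stages alone, 2 with DESeq2, 0 without the filter (33 members tested) and 0 to 4 when leaving out 1 library. For E16.5 against E14.5, the count of 5 became 8 with the set as a term, 9 with the high set only and 3 to 6 when leaving out 1 library. Library totals in place of TMM moved the median of all genes to -0.151 in that comparison, with 4 members passing. The cause of these shifts was not tested. In their deviations from the stage mean, same-numbered libraries of different stages correlated at -0.779 to 0.665 and different-numbered ones at -0.751 to 0.765. Of the 18 libraries, 0 correlated best with their own number. Replicate numbers thus showed no pairing of the libraries, but this check cannot exclude a shared litter or batch. The fit with the replicate block gave 3 members for E10.5 against E9.5, 2 for E14.5 against E12.5 and 26 for E16.5 against E9.5. Among single members, mt-Nd3 and mt-Atp8 above turned direction, 15 calls were lost under at least 1 alternative, and 33 changes without a call gained one.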
